A study of Mus musculus with 15 samples.

Results

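Wnt proteins are secreted, lipid-bearing ligands that bind Frizzled receptors on the cell surface. With the co-receptors Lrp5 and Lrp6, a bound Frizzled stabilises beta-catenin, which enters the nucleus and acts with TCF and LEF factors, whereas Ror1, Ror2 and Ryk relay Wnt signals that mostly do not run through beta-catenin. R-spondins bind Lgr4, Lgr5 and Lgr6 and protect Frizzled receptors from removal by the ubiquitin ligases Rnf43 and Znrf3. In blood vessels Fzd4 is the best known Frizzled, since it carries the norrin signal that shapes the retinal vasculature and the blood-brain barrier.

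Transcripts of these ligands, receptors and R-spondins were examined in 3 cell populations sorted from tumors, which the study describes as endothelial. A gene was included by its symbol alone, as a Wnt ligand (19 genes), an R-spondin (4), a Frizzled (10), Lrp5 or Lrp6 (2), Ror1, Ror2 or Ryk (3), or Lgr4, Lgr5 or Lgr6 (3). This gave 41 of the 53465 genes in the table, and 36 of the 41 had a mean of at least 5 normalised counts over all libraries and entered the tests. The 5 that were too low to be tested were *Wnt1*, *Wnt8a*, *Wnt8b*, *Wnt9b* and *Rspo4*.

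The mouse melanoma line B16-F0 was injected into CAG-GFP transgenic mice of both sexes, 8 to 14 weeks old, whose own cells carry GFP under a ubiquitous promoter, and cells were sorted from the tumors on day 15. All 3 populations were GFP+ and CD34+ after depletion of lineage-positive cells, and differed in the gate on 2 surface proteins. Endovascular progenitors (EVP) were CD31lo VEGFR2lo, transit amplifying cells (TA) were CD31int VEGFR2lo and definitive differentiated cells (D) were CD31hi VEGFR2hi, with n = 5 libraries each. All hosts thus carried the transgene and a tumor, and no tumor-free or untreated group was part of the comparison. GFP marks every host cell and not vessels alone. The sources used here do not say whether equal replicate numbers mark shared mice, so the p-values measure the spread between these samples, which may in part be technical.

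Between 5394356 and 26513073 reads per library fell on genes, and the libraries carried no molecular identifiers, so intervals and floors cover counting error only. Olfactory receptor genes, a family that vascular cells are not known to use, had a read in 81.6% to 98.3% of 1106 genes in replicate 1 of each population and in 57.8% to 71.0% in EVP replicate 2, TA replicate 2 and TA replicate 3, against at most 24.1% in the other 9 libraries. *Cdh5* (VE-cadherin) had 18.3 to 183 normalised counts in EVP, 138 to 7680.3 in TA and 7196 to 13383 in D, and the summed level of 8 endothelial markers ran from 2216 to 4090, from 5562 to 62394 and from 87260 to 142473. Fibroblast markers ran the other way. Their 8 genes, among them *Pdgfra*, *Col1a1* and *Dcn*, summed to between 723038 and 1306990 in EVP, 162697 and 514528 in TA and 1000 and 3386 in D, and no gene of the list was at 0 in any EVP or TA library, while 2 were at 0 in at least 1 D library. Transcripts of 6 melanoma markers summed to 29156 to 66912 in EVP, 68700 to 175253 in TA and 18070 to 47750 in D. Despite the depletion, 6 leukocyte markers, among them *Ptprc* and *Lyz2*, summed to 1856 to 8950 in EVP, 5467 to 32643 in TA and 2711 to 8585 in D. The highest leukocyte sum was in TA replicate 4, where the endothelial markers summed to 21952. In bulk samples such as these, fewer cells of a type and less RNA per cell cannot be told apart.

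Across the family, EVP and D differed at most members and EVP and TA at few. By limma on log2(normalised count + 1), with Benjamini-Hochberg adjustment over 25549 genes, 20 of the 41 members were higher in EVP than in D and 2 were higher in D, whereas over all tested genes 11.6% passed in the direction of EVP and 7.46% in that of D. For TA against D the counts were 16 higher in TA and 1 higher in D, beside 8.21% and 4.31% of all genes. Between EVP and TA 1 member passed, *Ryk*, beside 1.56% of all genes in the direction of EVP and 1.94% in that of TA, and 12 members had an unadjusted p under 0.05. The median log2 fold change of the 36 tested members was 2.91 for EVP against D, 0.68 for EVP against TA and 2.18 for TA against D, while the median of all tested genes was 0.46, 0.09 and 0.24. EVP against D and TA against D share the D libraries, so these 2 sets of values are not independent.

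**Figure D1:**
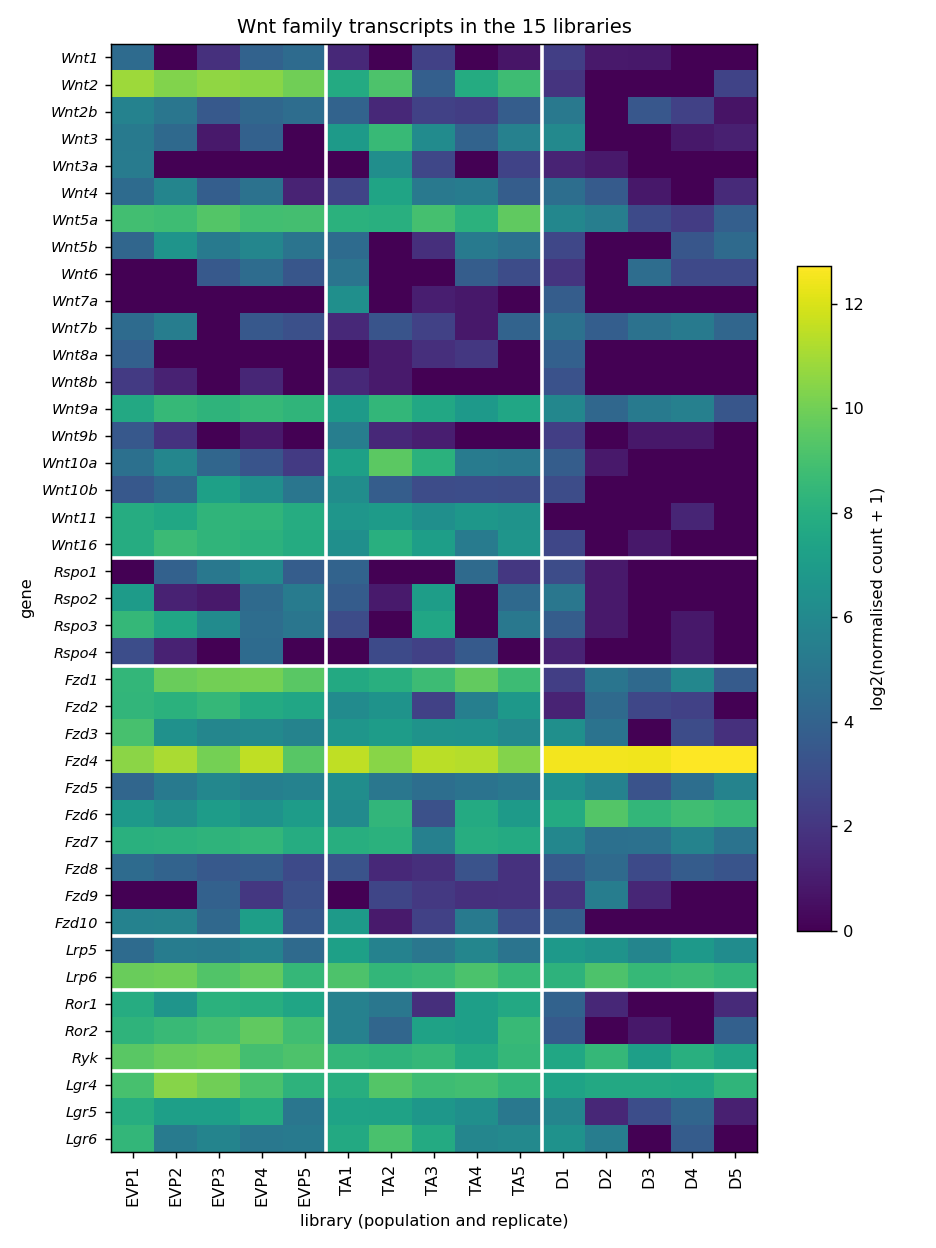
Level of each of the 41 genes (rows, ordered as ligands, R-spondins, Frizzled receptors, Lrp5 and Lrp6, Ryk and Ror receptors, and Lgr receptors) in each of the 15 libraries (columns), coloured by log2(normalised count + 1). *Fzd4* is the highest row in the D libraries, and most ligand rows are dark in D replicates 2 to 5.

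**Figure D2:**
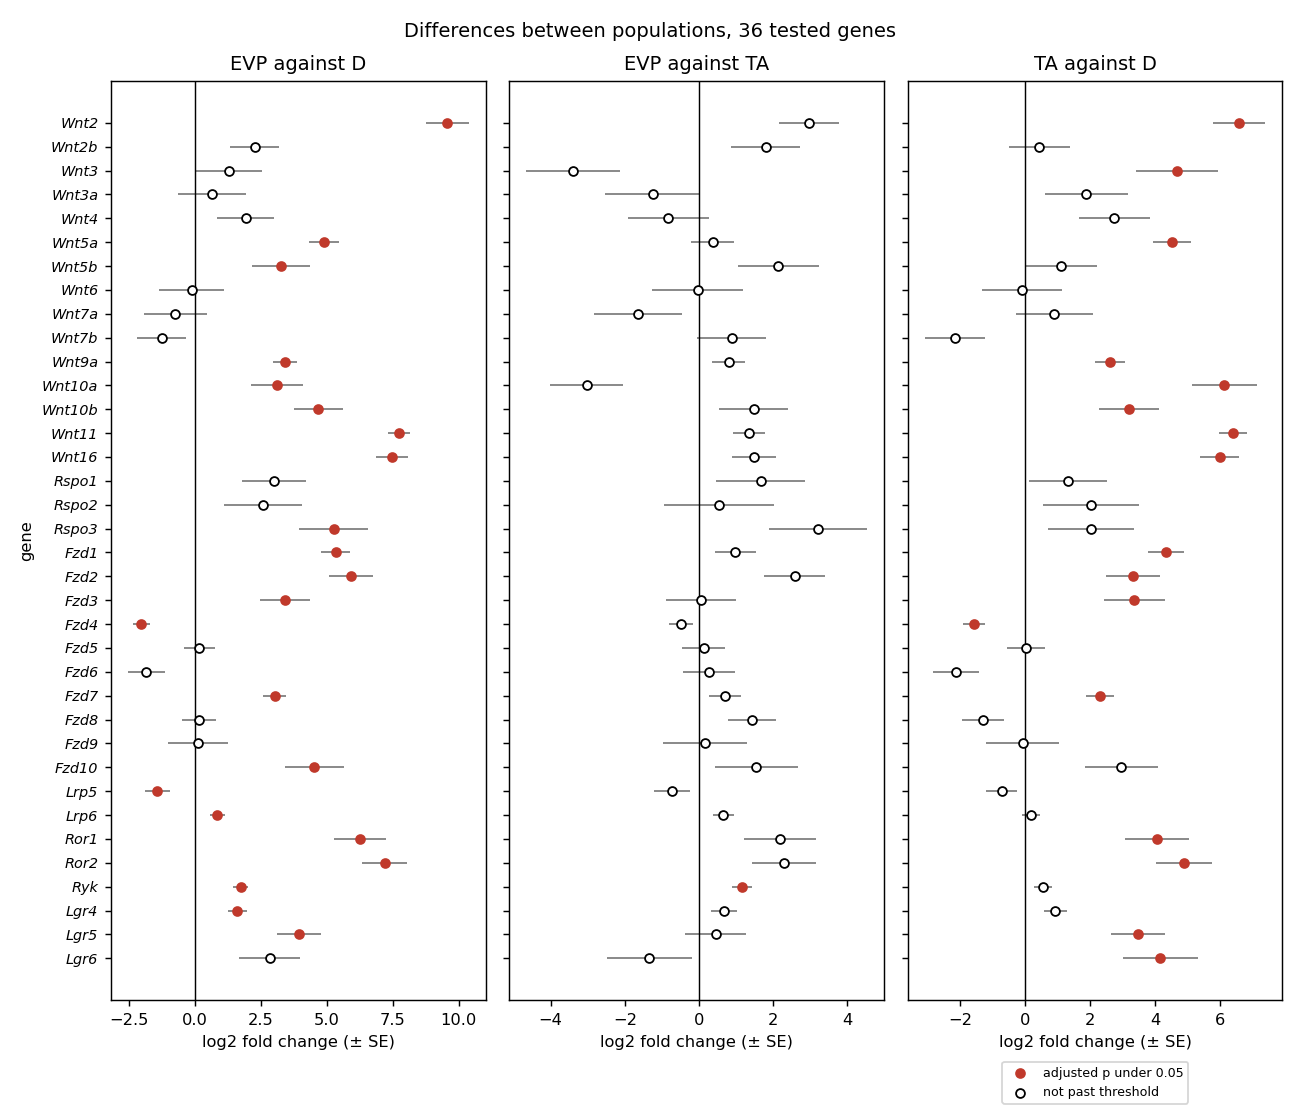
Log2 fold change (x axis) with its standard error for the 36 tested genes (y axis) in each of the 3 comparisons, from 1 limma fit over 15 libraries. Filled points have an adjusted p under 0.05, which holds for 22 genes in EVP against D, 1 in EVP against TA and 17 in TA against D; a value above 0 means higher in the population named first.

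Summed per kb of exon, ligand transcripts were far higher in EVP and TA than in D. Of 19 ligand genes, 8 were higher in EVP than in D and none was lower, beside 11.6% and 7.46% of all tested genes. For TA against D 8 were higher in TA and none was lower, beside 8.21% and 4.31%. In each of these comparisons 11 ligands were not called. *Wnt2*, a ligand known from placental and lung development, was the most abundant. It lies on chromosome 6, 17988940 to 18030585, minus strand (GRCm38), as do all positions given here. Its normalised counts, in the order of replicates 1 to 5, as for every gene below, were 1889, 1257, 1557, 1423 and 1019.9 in EVP, 222, 576, 13.4, 225 and 432 in TA and 2.75, 0, 0, 0 and 4.83 in D. Every EVP library lay above every TA library, and every TA library lay above every D library. EVP exceeded D 943-fold in mean normalised count (log2 fold change 9.56 ± 0.81 (SE), adjusted p = 1.49e-07), and TA exceeded D 194-fold (6.59 ± 0.81 (SE), adjusted p = 2.51e-05). The 4.87-fold difference between EVP and TA just missed the threshold (2.97 ± 0.81 (SE), adjusted p = 0.0515). It passed under 7 of the 28 alternative settings, among them DESeq2 on whole reads and the replicate number as a block. The 5 D libraries together held 10 *Wnt2* reads.

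*Wnt11* and *Wnt16* were close to 0 in D as well. *Wnt11* (chromosome 7, 98835112 to 98855195, plus strand), a ligand of the planar polarity branch, had 232, 191, 322, 325 and 232 in EVP, 102, 124, 81.5, 106 and 92.2 in TA and 0, 0, 0, 1.5 and 0 in D. The 3 populations did not overlap. The EVP and D means differed by 7.73 ± 0.43 on the log2 scale (adjusted p = 1.14e-09) and the TA and D means by 6.39 ± 0.43 (adjusted p = 3.96e-08), while EVP against TA gave 1.34 ± 0.43 (SE), adjusted p = 0.103. This last difference passed under 3 of the 28 alternative settings, among them DESeq2 on whole reads. D replicate 4 held 2 reads of *Wnt11* and the other 4 D libraries none, so the 866-fold ratio of EVP to D has a 95% counting interval of 239.8 to 7154. Reads of *Wnt11* cannot be told apart from those of *Gm8398* on the opposite strand over 8.80% of its exon bases, because the library kit does not mark strand. *Wnt16* (chromosome 6, 22288227 to 22298522, plus strand), which is known from bone and from early hematopoietic development, had 235, 413, 319.9, 285 and 227 in EVP, 81, 262, 141, 38.4 and 100.3 in TA and 5.49, 0, 0.782, 0 and 0 in D. EVP and TA lay above D without overlap and overlapped each other in part. The log2 fold change was 7.47 ± 0.60 (SE), adjusted p = 8.38e-08 for EVP against D and 5.99 ± 0.60 (SE), adjusted p = 2.63e-06 for TA against D.

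*Wnt5a* and *Wnt9a* had more than 3 reads in every library, D included. *Wnt5a* (chromosome 14, 28504750 to 28527448, plus strand), the main ligand of Ror receptors, had 467, 436, 635, 468 and 494 in EVP, 284, 257, 509, 289 and 778 in TA and 59, 43.3, 6.25, 3.76 and 13.3 in D. All EVP and TA libraries lay above all D libraries, and the highest library of all was TA replicate 5. The log2 fold change was 4.89 ± 0.58 (SE), adjusted p = 6.31e-06 for EVP against D, 4.52 ± 0.58 (SE), adjusted p = 4.24e-05 for TA against D and 0.37 ± 0.58 for EVP against TA (adjusted p = 0.91). Over 4.58% of its exon bases *Wnt5a* shares its position with the antisense gene *Gm2670*. *Wnt9a* (chromosome 11, 59306928 to 59333552, plus strand), a regulator of joint and blood stem cell development, had 204, 363, 313, 372 and 325 in EVP, 122, 346, 195, 112 and 187 in TA and 57.7, 18, 36, 45.8 and 9.67 in D. D was below both other populations without overlap, with 3.42 ± 0.45 (SE), adjusted p = 1.91e-05 for EVP against D and 2.62 ± 0.45 (SE), adjusted p = 0.000723 for TA against D.

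Of the other ligands higher in EVP than in D, *Wnt10b* (chromosome 15, 98770712 to 98778150, minus strand), a ligand that holds back fat cell formation, had 10.5, 18.3, 149.7, 77.5 and 30.4 in EVP, 75.8, 12.3, 6.7, 7.05 and 6.85 in TA and 6.86, 0, 0, 0 and 0 in D. The EVP level varied over a wide range, and D replicate 1 held the only 5 reads found in D. The difference was 4.67 ± 0.93 (SE), adjusted p = 0.0012 against D in EVP and 3.19 ± 0.93 (SE), adjusted p = 0.0298 in TA, the latter past the threshold under 17 of the 28 alternative settings. *Wnt5b* (chromosome 6, 119432531 to 119544347, minus strand), close in sequence to *Wnt5a*, had 17.6, 94.1, 36, 56.7 and 29 in EVP, 20.7, 0, 2.23, 35.3 and 26.2 in TA and 5.49, 0, 0, 9.77 and 19.9 in D. The ranges overlapped, and the difference between EVP and D (3.25 ± 1.09 (SE), adjusted p = 0.0458) passed under 13 of the 28 alternative settings.

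*Wnt10a* and *Wnt3* stood highest in TA instead of EVP. *Wnt10a* (chromosome 1, 74791516 to 74804179, plus strand), a ligand of skin, hair and teeth, had 24.6, 56.2, 17.2, 8.79 and 3.46 in EVP, 148, 748, 279, 38.4 and 33 in TA and 12.4, 0.816, 0, 0 and 0 in D. TA lay above D in every library (6.14 ± 0.99 (SE), adjusted p = 0.000422), and EVP against D gave 3.11 ± 0.99 (SE), adjusted p = 0.0346, which passed under 16 of the 28 alternative settings. *Wnt3* (chromosome 11, 103774150 to 103817957, plus strand), a ligand of the embryonic axis and of hair follicles, had 35.1, 19.6, 0.818, 14.4 and 0 in EVP, 122, 375, 70.3, 15.7 and 46.7 in TA and 61.8, 0, 0, 0.751 and 1.21 in D. D replicate 1 lay within the TA range while the other D libraries were near 0, and the difference between TA and D was 4.67 ± 1.26 (SE), adjusted p = 0.0199. This difference passed under 21 of the 28 alternative settings, but not with DESeq2 or edgeR on whole reads. For neither gene did EVP against TA pass (*Wnt10a* -3.03 ± 0.99 (SE), adjusted p = 0.113, and *Wnt3* -3.39 ± 1.26 (SE), adjusted p = 0.177). For *Wnt10a* it passed under 2 of the 28 alternative settings, DESeq2 on whole reads and the replicate number as a block.

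Keratinocyte transcripts moved in part with these ligands. The 5 markers *Krt5*, *Krt14*, *Krt1*, *Krt10* and *Trp63* summed to 12574, 66886, 6684, 1250 and 4123 normalised counts in TA replicates 1 to 5, to 1031 to 5982 in EVP and to 66.1 to 1782 in D. All 5 markers were higher in TA than in D, beside 8.21% of all tested genes. None was at 0 in an EVP or TA library, and 2 were at 0 in at least 1 D library. TA replicate 2 held the highest sum and also the highest *Wnt10a*, *Wnt3*, *Wnt3a*, *Wnt4* and *Lgr6* of all libraries. TA replicate 1 had a higher sum than TA replicate 3, with less *Wnt10a* (148 against 279) and more *Wnt3* (122 against 70.3). TA replicate 4 had a lower sum than EVP replicate 1 (1250 against 2331). Its *Wnt10a* was higher (38.4 against 24.6) and its *Wnt3* lower (15.7 against 35.1). Without TA replicate 2, *Wnt10a* remained higher in TA than in D (log2 fold change 5.51, adjusted p = 0.00159), while *Wnt3* (4.10, adjusted p = 0.059) and *Lgr6* (3.72, adjusted p = 0.0628) no longer passed. The part of keratinocyte RNA in these values was not tested.

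**Figure D3:**
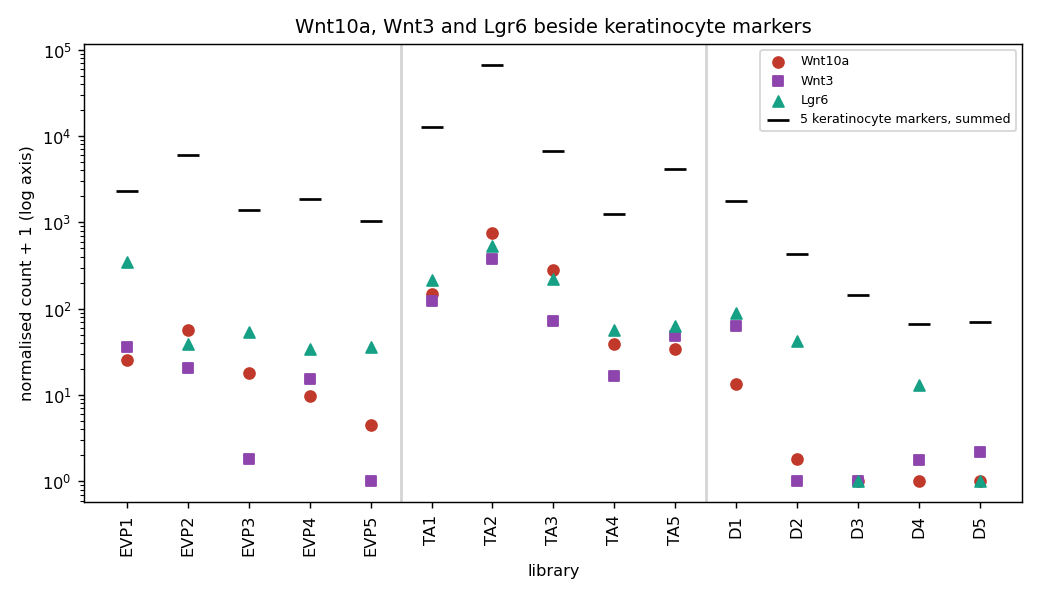
Normalised count + 1 (y axis, log scale) of *Wnt10a*, *Wnt3* and *Lgr6* in each library (x axis), with the summed level of 5 keratinocyte markers as bars. The sum and all 3 genes are highest in TA replicate 2, at 66886 for the markers and 748, 375 and 536 for the genes.

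The fibroblast markers moved with *Wnt2*, *Wnt11*, *Wnt16*, *Wnt5a* and *Wnt9a* between populations. All 8 were higher in EVP and in TA than in D, beside 11.6% and 8.21% of all tested genes. The libraries of D stood apart from all others, as for these 5 ligands. The part of these markers' cells in the ligand levels was not tested. Within TA the markers were highest in replicates 5 and 2, at 514528 and 448803, where *Wnt2* reached its highest TA values, 432 and 576, while *Wnt5a* had its lowest TA value, 257, in replicate 2. Within EVP the markers were lowest in replicate 1, at 723038, where *Wnt2* was highest at 1889, and highest in replicate 2, at 1306990, where *Wnt2* was at 1257. Mural cell markers were summed in the same way. Their 8 genes, among them *Pdgfrb*, *Rgs5* and *Acta2*, summed to 155024 in TA replicate 5 and to 6139 to 39767 in the other TA libraries, to 7277 to 33899 in EVP and to 5165 to 10852 in D, and none was at 0 in any library. Of the 8, 5 were higher in TA than in D (8.21% of all tested genes). Between EVP and D, 3 were higher in EVP (11.6%) and 2 in D (7.46%), *Kcnj8* and *Abcc9*. TA replicate 5 also held the highest TA values of *Wnt5a*, *Ror2* and *Ror1*, at 778, 376 and 204, and the highest TA sum of the fibroblast markers. In TA replicate 2, with a mural sum of 38274, *Wnt5a* and *Ror2* had their lowest TA values, 257 and 17.6. The part of mural cell RNA in these values was not tested.

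**Figure D4:**
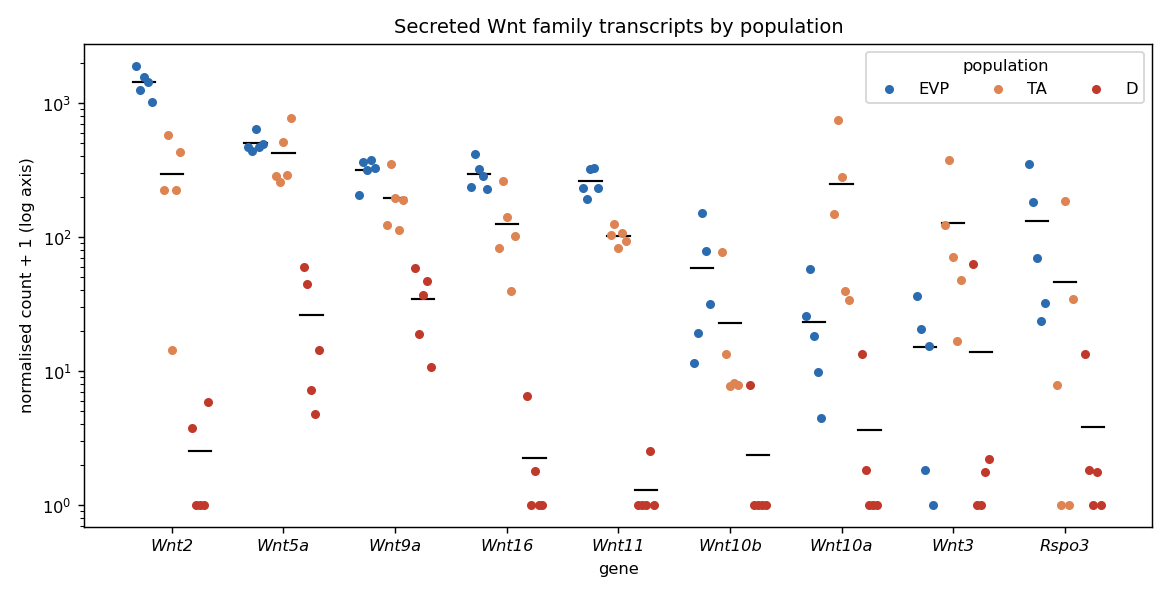
Normalised count + 1 (y axis, log scale) of 8 ligands and *Rspo3* (x axis) in EVP, TA and D, with 1 point per library and a black line at the mean of 5. The D points of *Wnt2*, *Wnt11* and *Wnt16* lie at or near 1, and TA replicate 3 is the low TA point of *Wnt2* at 13.4 normalised counts.

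Compared per kilobase of exon, so that genes of different length share a scale, the ligand transcripts summed to 1000 ± 151 (SD, n = 5) normalised counts per kb in EVP, 485 ± 287 in TA and 38.8 ± 31.5 in D. *Wnt2* made up 62.8% ± 5.78 of the EVP sum with 57.9% to 72.5% in single libraries, followed by *Wnt9a* with 9.77% ± 2.92. In TA the mix was more even and less steady, with 26.8% ± 16 for *Wnt2*, 17.7% ± 14 for *Wnt10a*, 13.7% ± 7.64 for *Wnt5a* and 12.6% ± 3.13 for *Wnt9a*. What little ligand RNA D held was led by *Wnt9a* (28.8% ± 13) and *Wnt7b* (16.2% ± 7.05). *Wnt7b*, a ligand of brain angiogenesis, had 0 to 40.5 normalised counts in EVP, 0.784 to 15.6 in TA and 13.1 to 37.6 in D, with no difference past the threshold, and shares 6.61% of its exon bases with an antisense gene.

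The sequence in front of the start site is shown for 4 ligands whose EVP and TA libraries all lay above the D libraries, and for *Fzd4*, which had the opposite order. Each line gives the 250 bases upstream of the RefSeq start on the gene's own strand (GRCm38.p6). Capitals mark matches, on either strand, to the letters TATAAA (the TATA box), the letters CCAAT (the CCAAT box), the letters GGGCGG (the GC box), the letters AACAAT (a Sox motif), the letters CCGGAA (an ETS motif), the letters CTTTGA (a TCF/LEF motif) and the letters CACGTG (an E-box). Some GC boxes overlap each other.
*Wnt2* (chr6:18030446-18030695, minus strand): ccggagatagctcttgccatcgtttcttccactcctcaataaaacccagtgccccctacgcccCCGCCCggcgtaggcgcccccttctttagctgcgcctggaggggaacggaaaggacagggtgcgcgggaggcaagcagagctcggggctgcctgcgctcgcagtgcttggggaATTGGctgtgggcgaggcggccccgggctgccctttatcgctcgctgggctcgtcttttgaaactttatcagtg
*Wnt11* (chr7:98834862-98835111, plus strand): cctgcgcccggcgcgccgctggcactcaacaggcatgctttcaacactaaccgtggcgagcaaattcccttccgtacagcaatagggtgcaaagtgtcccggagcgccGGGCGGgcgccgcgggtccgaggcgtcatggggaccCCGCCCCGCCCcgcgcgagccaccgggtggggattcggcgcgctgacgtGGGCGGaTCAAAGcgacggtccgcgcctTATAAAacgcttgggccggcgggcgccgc
*Wnt16* (chr6:22287977-22288226, plus strand): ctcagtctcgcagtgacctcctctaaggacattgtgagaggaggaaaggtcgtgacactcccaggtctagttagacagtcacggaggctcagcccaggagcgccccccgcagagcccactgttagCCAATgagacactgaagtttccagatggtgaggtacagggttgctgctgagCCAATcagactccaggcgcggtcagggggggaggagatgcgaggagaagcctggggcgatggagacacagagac
*Wnt9a* (chr11:59306680-59306929, plus strand): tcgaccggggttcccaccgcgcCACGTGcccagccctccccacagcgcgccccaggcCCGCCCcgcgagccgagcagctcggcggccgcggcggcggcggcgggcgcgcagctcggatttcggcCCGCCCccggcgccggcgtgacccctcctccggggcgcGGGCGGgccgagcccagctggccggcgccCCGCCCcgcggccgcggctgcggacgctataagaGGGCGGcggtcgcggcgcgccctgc
*Fzd4* (chr7:89404116-89404365, plus strand): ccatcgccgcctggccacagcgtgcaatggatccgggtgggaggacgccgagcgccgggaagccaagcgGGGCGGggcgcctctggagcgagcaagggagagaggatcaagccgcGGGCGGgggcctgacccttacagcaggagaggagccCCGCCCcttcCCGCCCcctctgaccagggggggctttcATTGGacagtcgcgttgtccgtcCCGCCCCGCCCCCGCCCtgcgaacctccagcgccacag

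The 5 windows shared no single motif among those searched. The GC box was in the windows of *Wnt2*, *Wnt11*, *Wnt9a* and *Fzd4* and not in that of *Wnt16*, and was found in 32.7% of 32851 RefSeq promoter windows of the same length. *Wnt11* alone held a TATA box (12.4% of all windows) and a TCF/LEF motif (13.8%), and *Wnt9a* alone held an E-box (6.02%). CCAAT boxes stood in *Wnt2*, *Wnt16* and *Fzd4* (33.8% of all windows), and none of the 5 held the Sox motif (9.42%) or the ETS motif (12.0%). The number of CG dinucleotides was 20 in *Wnt2*, 37 in *Wnt11*, 9 in *Wnt16*, 48 in *Wnt9a* and 25 in *Fzd4*, beside a median of 6 in all windows. RefSeq windows were matched for 28 of the 41 members. Of these 28, 22 held a GC box, 10 a CCAAT box, 3 each a TATA box, a TCF/LEF motif and an E-box, 2 the Sox motif and 1 the ETS motif, and the median number of CG dinucleotides was 24. A match describes the letters in the window and does not show that a factor binds there.

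Among the ligands are 4 pairs of neighbours in the genome. *Wnt9a* and *Wnt3a* lie head to head on chromosome 11, with 16175 bases between their 5′ ends, and over all libraries *Wnt9a* ranged from 9.67 to 372 normalised counts and *Wnt3a* from 0 to 76.5. *Wnt10b* and *Wnt1* lie 11706 bases apart on chromosome 15, and *Wnt1* did not exceed 21.1 in any library, a value found in EVP replicate 1, where *Wnt10b* was at 10.5. *Wnt1* had 0 to 21.1 in EVP, 0 to 4.46 in TA and 0 to 4.12 in D, with 58, 6 and 5 reads in total. Among the alternatives, EVP against D passed for *Wnt1* only without EVP replicate 2. *Wnt10a* and *Wnt6* are 6193 bases apart on chromosome 1. *Wnt6* ranged from 0 to 29.3, and stood above *Wnt10a* in EVP replicates 4 and 5 and D replicates 3 to 5. *Wnt3* and *Wnt9b* are 24328 bases apart on chromosome 11. In TA replicates 1 and 2 *Wnt3* stood at 122 and 375 and *Wnt9b* at 43.1 and 1.76.

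The detection limit was set at 3 reads per library, which equals 1.81 normalised counts in D replicate 5, the deepest library, and 10.5 in EVP replicate 1, the shallowest. In EVP 3 members were at or under this limit in every library, *Wnt7a*, *Wnt8b* and *Wnt9b*, and *Wnt7a* had no read in any of the 5. In TA only *Wnt8b* met this description. In D 5 members did so, *Wnt1*, *Wnt3a*, *Wnt9b*, *Wnt11* and *Rspo4*. More than 3 reads in every library were found for 26 members in EVP, 22 in TA and 12 in D. The D libraries outside replicate 1 each had 21 to 24 of the 41 members at or under the limit, against 5 to 13 in the libraries of EVP and TA. D replicate 1 had 10, beside its reads on olfactory receptor genes. With the level per kb compared instead with the 95th percentile of the olfactory receptor genes of the same library, 3 members in EVP (*Wnt3a*, *Wnt7a* and *Wnt8a*), 2 in TA (*Wnt8b* and *Wnt9b*) and 11 in D were at or under it in every library. The 11 were *Wnt1*, *Wnt3a*, *Wnt7a*, *Wnt8a*, *Wnt8b*, *Wnt10a*, *Wnt10b*, *Wnt16*, *Rspo1*, *Rspo2* and *Fzd10*. By this measure 4 members stood above background in all 5 EVP libraries, *Wnt2*, *Rspo3*, *Fzd4* and *Ryk*, while 24 did so in at least 4 of the 5. EVP replicate 1, where the percentile stood at 108 per kb, had 37 of the 41 members at or under it. In EVP replicate 5, TA replicates 4 and 5 and D replicates 4 and 5 the percentile was 0, so any read stood above it. *Wnt11*, with 2 reads in D replicate 4, was for this reason not among the 11. In TA 10 members stood above in all 5 libraries and 14 in at least 4, and in D 5 did so in all 5 (*Fzd4*, *Fzd6*, *Lrp6*, *Ryk* and *Lgr4*) and 12 in at least 4. A gene at the limit was not detectable at this depth, which does not show that its transcript is absent.

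For 6 other ligands no difference was called. *Wnt2b* had 10.6 to 49.2 normalised counts in EVP, 1.76 to 15.5 in TA and 0 to 34.3 in D, and *Wnt4* had 1.38 to 54.9, 5.17 to 172 and 0 to 23.3, with the TA maximum in replicate 2. *Wnt7a* was found at 79.3 in TA replicate 1, at 12.4 in D replicate 1 and at 1.12 or less elsewhere. *Wnt8a* and *Wnt8b* stayed at or under 14 and 8.24 in all 15 libraries, and *Wnt9b* reached 43.1 in TA replicate 1. Of the 6, *Wnt8a*, *Wnt8b* and *Wnt9b* were too low to be tested.

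By mean level per kb *Rspo3*, the R-spondin known to be needed for vessel stability, stood first of the 4 R-spondins in EVP and TA and second to *Rspo2* in D. *Rspo3* (chromosome 10, 29452416 to 29535867, minus strand) had 351, 182, 68.7, 22.4 and 31.1 in EVP, 6.89, 0, 184, 0 and 33.6 in TA and 12.4, 0.816, 0, 0.751 and 0 in D. Every EVP library lay above every D library (5.25 ± 1.32 (SE), adjusted p = 0.00809), while the EVP values themselves spread over more than 1 order of magnitude. The olfactory receptor reads were also high in the libraries that led each population for *Rspo3*, with a read in 98.3% and 61.8% of these genes in EVP replicates 1 and 2, 71.0% in TA replicate 3 and 89.2% in D replicate 1. TA replicates 1 and 2, at 81.6% and 57.8%, held 6.89 and 0 of *Rspo3*. Without replicate 1 of every population the difference between EVP and D was 5.38 (adjusted p = 0.0145). It also passed with the median olfactory receptor level per kb subtracted in each library. The part of such background in *Rspo3* was otherwise not tested. In TA replicate 3 *Rspo3* stood at 184 and in 2 other TA libraries it was at 0, and neither TA against D nor EVP against TA passed (adjusted p = 0.414 and 0.235). Over 13.1% of its exon bases an antisense gene shares the position of *Rspo3*. *Rspo1* had 0 to 63.1 in EVP and 0 to 6.86 in D (adjusted p = 0.103). *Rspo2* ranged from 0.818 to 126 in EVP and from 0 to 135 in TA, with its highest values in EVP replicate 1 and TA replicate 3, and *Rspo4* did not exceed 20.8 in any library.

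Of the Frizzled receptors *Fzd4* had the highest mean level per kb in all 3 populations. *Fzd4* (chromosome 7, 89404355 to 89413134, plus strand), the norrin receptor of vessels, had 1482, 2212, 1064, 2944 and 687 in EVP, 2918, 1398, 2766, 2515 and 1340.1 in TA and 5748, 5821, 5722, 6805 and 6584 in D. All D libraries lay above all libraries of EVP and TA, and EVP and TA overlapped. D exceeded EVP 3.66-fold and TA 2.81-fold, with a log2 fold change of -2.05 ± 0.33 (SE), adjusted p = 0.000144 for EVP against D and of -1.56 ± 0.33 (SE), adjusted p = 0.00347 for TA against D. EVP against TA gave -0.49 ± 0.33 (SE), adjusted p = 0.559. *Fzd4* was the only member higher in D than in TA past the threshold, and with *Lrp5* one of 2 higher in D than in EVP.

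The Frizzled genes of the *Fzd1*, *Fzd2* and *Fzd7* group, which are close relatives in sequence, had the opposite order. *Fzd1* (chromosome 5, 4753839 to 4758035, minus strand) had 344, 905, 1053, 1081 and 707 in EVP, 215, 262, 429, 819.6 and 423 in TA and 4.12, 30.2, 19.5, 58.6 and 11.5 in D. D was below both other populations without overlap (EVP against D 5.32 ± 0.55 (SE), adjusted p = 1.47e-06; TA against D 4.35 ± 0.55 (SE), adjusted p = 4.09e-05). *Fzd2* (chromosome 11, 102604396 to 102608058, plus strand) had 330.0, 283, 350.1, 223 and 186 in EVP, 68.9, 93.2, 4.46, 44.7 and 111 in TA and 1.37, 20.4, 5.47, 4.51 and 0 in D. Every EVP library lay above every library of TA and D, but TA replicate 3 lay within D, and the log2 fold change was 5.90 ± 0.83 (SE), adjusted p = 4.01e-05 for EVP against D, 3.33 ± 0.83 (SE), adjusted p = 0.012 for TA against D and 2.58 ± 0.83 (SE), adjusted p = 0.106 for EVP against TA. *Fzd7* (chromosome 1, 59482424 to 59486955, plus strand) had 274, 289, 309, 349 and 236 in EVP, 255, 281, 45.8, 244 and 219 in TA and 57.7, 25.3, 25.8, 50.3 and 27.8 in D. TA replicate 3 was again the low TA library and lay within D, with 3.01 ± 0.44 (SE), adjusted p = 6.64e-05 for EVP against D and 2.31 ± 0.44 (SE), adjusted p = 0.00193 for TA against D.

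*Fzd3* (chromosome 14, 65192449 to 65262463, minus strand), a receptor of axon guidance and tissue polarity, had 513, 86.2, 55.6, 63.1 and 51.2 in EVP, 103, 130.1, 92.6, 87.8 and 62.9 in TA and 81, 27.8, 0, 6.76 and 2.42 in D. EVP replicate 1 stood far above the rest of EVP and D replicate 1 above the rest of D. The difference was 3.41 ± 0.94 (SE), adjusted p = 0.0152 for EVP against D and 3.37 ± 0.94 (SE), adjusted p = 0.0247 for TA against D. Without replicate 1 of every population it was 3.60 (adjusted p = 0.00447) and 4.12 (adjusted p = 0.00276). EVP against D passed under 26 of the 28 alternative settings, and TA against D under 20 of the 28 alternative settings, with DESeq2 (adjusted p = 0.157) and edgeR (adjusted p = 0.272) on whole reads among those under which it did not. *Fzd10* (chromosome 5, 128600844 to 128604093, plus strand) had 49.2, 50.9, 18.8, 139 and 10.4 in EVP, 122, 0.879, 4.46, 35.3 and 7.47 in TA and 12.4, 0, 0, 0 and 0 in D. It had no read in 4 of 5 D libraries, and EVP against D gave 4.51 ± 1.12 (SE), adjusted p = 0.00739.

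*Fzd6*, a receptor of hair and skin polarity, had 112, 77.1, 130.1, 88.7 and 129 in EVP, 67.2, 338, 7.81, 218 and 120.2 in TA and 217, 647, 343, 449 and 377 in D. EVP and D did not overlap, yet neither EVP against D (-1.85 ± 0.70 (SE), adjusted p = 0.0772) nor TA against D (-2.12 ± 0.70 (SE), adjusted p = 0.0562) passed. Each of these 2 differences passed under 7 of the 28 alternative settings. For EVP against D they included DESeq2 and edgeR on whole reads. *Fzd5* had 17.6 to 58.1 in EVP, 23.4 to 74.1 in TA and 8.6 to 86.5 in D, and reads over 17.8% of its exon bases cannot be told apart from an antisense gene. *Fzd8* did not exceed 21.1 and *Fzd9* did not exceed 40.8 in any library, and neither passed a test.

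Per kilobase, Frizzled transcripts summed to 645 ± 188 normalised counts per kb in EVP, 548 ± 122 in TA and 1028 ± 87.8 in D. *Fzd4* made up 36.8% ± 11.2 of this sum in EVP, 58.5% ± 13.2 in TA and 88.9% ± 3.64 in D, and the ranges of EVP (24.4% to 48.2%) and D (82.5% to 91.1%) did not overlap. *Fzd1* made up 30.7% ± 10.3 in EVP, *Fzd2* 12.3% ± 3.97 and *Fzd7* 10.4% ± 1.72. In D the next largest share was that of *Fzd6* with 8.13% ± 2.92. *Fzd4* itself stood at 249.7 ± 135 per kb in EVP and 913 ± 77 in D, and the other 9 summed to 395 ± 76.7 in EVP and 115 ± 41.4 in D.

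**Figure D5:**
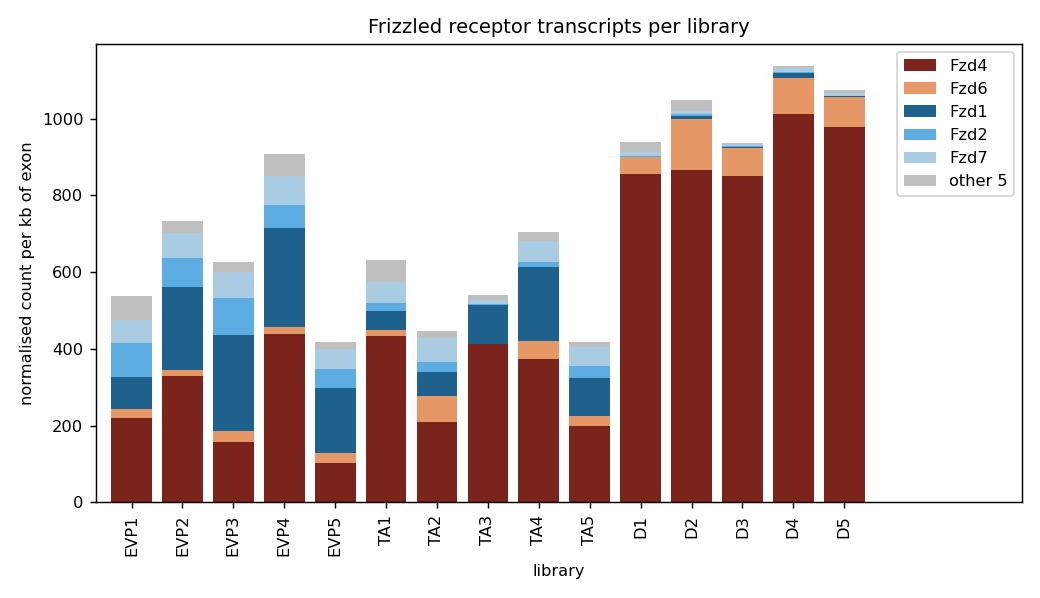
Normalised counts per kb of exon (y axis) of the Frizzled genes stacked for each library (x axis), with *Fzd4* at the bottom and the 5 genes *Fzd3*, *Fzd5*, *Fzd8*, *Fzd9* and *Fzd10* summed in grey. *Fzd4* fills 82.5% to 91.1% of each D bar and 24.4% to 48.2% of each EVP bar.

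The co-receptors differed in direction from each other. *Lrp5* (chromosome 19, 3584828 to 3686564, minus strand), which acts with *Fzd4* in norrin signalling, had 21.1, 39.2, 36, 49.6 and 20.1 in EVP, 152, 49.2, 32.4, 57.2 and 28.6 in TA and 117, 91.4, 54.7, 117 and 72.5 in D. All D libraries lay above all EVP libraries, and the log2 fold change was -1.45 ± 0.47 (SE), adjusted p = 0.0406, past the threshold under 15 of the 28 alternative settings. *Lrp6* (chromosome 6, 134446476 to 134566965, minus strand) had 899, 963, 616, 822 and 351 in EVP, 571, 343, 397, 566 and 366 in TA and 302, 568, 371, 411 and 328 in D. EVP and D overlapped, and the difference of 0.83 ± 0.28 (SE), adjusted p = 0.047 passed under 11 of the 28 alternative settings. *Lrp6* was the more abundant of the pair per kb in each population, with 93.7% ± 1.98 of their sum in EVP, 84.7% ± 7.18 in TA and 75.4% ± 7.45 in D.

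The Ror and Ryk receptors were higher in EVP than in D without overlap. *Ror2* (chromosome 13, 53109312 to 53286124, minus strand), a tyrosine kinase-like receptor for *Wnt5a*, had 312, 393, 464, 798 and 451 in EVP, 46.5, 17.6, 158, 143 and 376 in TA and 11, 0, 0.782, 0 and 13.9 in D. TA lay between EVP and D, and TA replicate 5 overlapped EVP. The log2 fold change was 7.18 ± 0.86 (SE), adjusted p = 7.2e-06 for EVP against D and 4.90 ± 0.86 (SE), adjusted p = 0.000895 for TA against D. *Ror1* (chromosome 4, 100095791 to 100444765, plus strand) had 232, 99.3, 279, 250.2 and 178 in EVP, 46.5, 31.6, 2.23, 147 and 204 in TA and 15.1, 1.63, 0, 0 and 1.81 in D. TA replicate 3 lay within D, and the difference was 6.24 ± 0.98 (SE), adjusted p = 0.000129 for EVP against D and 4.06 ± 0.98 (SE), adjusted p = 0.00974 for TA against D. *Ryk* (chromosome 9, 102834917 to 102908305, plus strand), a receptor with an inactive kinase domain, had 716, 867, 978, 480.3 and 578 in EVP, 346, 314, 361, 218 and 357 in TA and 189, 350.2, 143, 259 and 175 in D. EVP exceeded TA 2.27-fold and D 3.24-fold, with 1.16 ± 0.27 (SE), adjusted p = 0.0254 and 1.72 ± 0.27 (SE), adjusted p = 0.000151, while TA against D did not pass (adjusted p = 0.23). The difference between EVP and TA passed under 22 of the 28 alternative settings, with adjusted p from 0.00078 to 0.0867. In D *Ryk* made up 95.9% ± 5.28 of the per-kb sum of these 3 receptors, against 51.8% ± 12.7 in EVP, where *Ror2* held 36.6% ± 11.8.

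Of the R-spondin receptors, *Lgr4* and *Lgr5* were higher in EVP than in D. *Lgr4* (chromosome 2, 109917647 to 110014257, plus strand) had 513, 1346, 992, 538 and 304 in EVP, 248, 643, 438, 463 and 339 in TA and 169, 207, 206, 189 and 316 in D. EVP and D overlapped only through EVP replicate 5 and D replicate 5, and the difference was 1.60 ± 0.36 (SE), adjusted p = 0.00336. *Lgr5* (chromosome 10, 115450311 to 115587780, minus strand), a stem cell marker of gut and hair, had 246, 145, 144, 228 and 31.1 in EVP, 167, 159, 106, 79.9 and 33 in TA and 54.9, 1.63, 7.03, 16.5 and 1.21 in D. EVP replicate 5 lay within D, and the difference was 3.94 ± 0.82 (SE), adjusted p = 0.00188 for EVP against D and 3.48 ± 0.82 (SE), adjusted p = 0.00829 for TA against D. Neither difference passed once the median olfactory receptor level per kb was subtracted in each library. *Lgr6* (chromosome 1, 134983301 to 135105276, minus strand), a stem cell marker of skin, had 348, 37.9, 52.4, 32.8 and 35.3 in EVP, 215, 536, 219.9, 55.6 and 62.3 in TA and 89.2, 40.8, 0, 12 and 0 in D. TA against D passed (4.17 ± 1.15 (SE), adjusted p = 0.023) and EVP against D did not (2.83 ± 1.15 (SE), adjusted p = 0.108), and the keratinocyte markers named above were highest in the same TA library as *Lgr6*. The difference between TA and D passed under 21 of the 28 alternative settings, but not with DESeq2 or edgeR on whole reads. *Lgr4* made up 79.6% ± 15.4 of the per-kb sum of the 3 in EVP and 86.9% ± 15.6 in D.

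Counted by non-overlap, every EVP library lay above every D library for 13 of the 41 members (10.2% of all tested genes), and every D library above every EVP library for 3, *Fzd4*, *Fzd6* and *Lrp5* (7.52%). Every TA library lay above every D library for 8 members (5.56%), and every D library above every TA library for 1, *Fzd4* (3.69%). Every EVP library lay above every TA library for 4 members, *Wnt2*, *Wnt11*, *Fzd2* and *Ryk* (2.70%). TA replicate 3 was the lowest TA library for *Wnt2*, *Fzd2*, *Fzd6*, *Fzd7* and *Ror1*, at 13.4, 4.46, 7.81, 45.8 and 2.23 normalised counts, and the highest for *Rspo2* and *Rspo3*. It also held the highest sum of the melanoma markers, 175253, against 68700 to 111757 in the other TA libraries. The part of melanoma RNA in these values was not tested.

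Other genes of the pathway were taken from 6 lists. Of the genes for Wnt secretion, *Wls*, which carries Wnt proteins to the surface, had 4110.3 ± 754 (SD, n = 5) in EVP, 3088 ± 1079 in TA and 1119 ± 130.3 in D, and was higher in EVP (1.86 ± 0.21 (SE), adjusted p = 3.62e-06) and TA (1.40 ± 0.21 (SE), adjusted p = 0.000211) than in D. *Porcn*, which attaches the lipid, had 157 ± 41.8, 96 ± 80.5 and 49.3 ± 15.6, and was higher in EVP than in D (1.67 ± 0.45 (SE), adjusted p = 0.0131). Neither passed for EVP against TA.

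Partners of Frizzled receptors split in direction. *Tspan12*, which joins *Fzd4* in norrin signalling, had 1039, 939, 1125, 689.7 and 1158 in EVP, 3563, 1641, 2507, 2897 and 2878 in TA and 5573, 8257, 7110.0, 5666 and 9519 in D. The 3 populations did not overlap, and the log2 fold change was -2.86 ± 0.22 (SE), adjusted p = 4e-08 for EVP against D, -1.43 ± 0.22 (SE), adjusted p = 0.000218 for TA against D and -1.42 ± 0.22 (SE), adjusted p = 0.0024 for EVP against TA. *Reck* and *Adgra2*, partners of Wnt7 ligands in brain vessels, were higher in EVP than in D, *Reck* with 837 ± 448 against 110.4 ± 40.2 (2.86 ± 0.41 (SE), adjusted p = 4.43e-05) and *Adgra2* with 771 ± 307 against 177 ± 53.7 (2.07 ± 0.32 (SE), adjusted p = 0.000113). *Reck* also exceeded its TA level of 229.8 ± 112 (1.88 ± 0.41 (SE), adjusted p = 0.0155). *Ndp*, the gene of norrin itself, had 0 to 28.1 in EVP, 0 to 10.0 in TA and 0 to 1.37 in D, and was too low to be tested.

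Of 11 cytoplasmic genes of the beta-catenin route, *Ctnnb1*, the gene of beta-catenin, was higher in D. It had 1822, 2158, 2684, 2361 and 2473 in EVP, 4221, 3323, 3991, 3523 and 2625 in TA and 5531, 7138, 6873, 8556 and 7277 in D. Only EVP and TA overlapped, and the log2 fold change was -1.62 ± 0.16 (SE), adjusted p = 8.48e-07 for EVP against D, -1.01 ± 0.16 (SE), adjusted p = 0.000363 for TA against D and -0.61 ± 0.16 (SE), adjusted p = 0.042 for EVP against TA, the last past the threshold under 11 of the 28 alternative settings. Higher in EVP than in D were *Dvl2*, an adaptor below Frizzled (1.85 ± 0.35 (SE), adjusted p = 0.000816), and *Btrc*, which tags beta-catenin for removal (1.05 ± 0.31 (SE), adjusted p = 0.0227), and *Dvl2* was also higher in TA (2.03 ± 0.35 (SE), adjusted p = 0.000813). The other 8 did not pass in any comparison. The median log2 fold change of the 11 was 0.25 for EVP against D, beside 0.46 for all genes.

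Among 8 TCF factors and co-activators, *Bcl9*, *Bcl9l* and *Pygo1*, co-activators that bind beta-catenin directly or in a chain, were higher in EVP than in D, at 2.62 ± 0.50, 2.19 ± 0.44 and 3.60 ± 0.71 on the log2 scale (adjusted p = 0.000843, 0.0015 and 0.00113). All 3 were also higher in TA than in D, with *Bcl9l* past the threshold under 17 of the 28 alternative settings and *Pygo1* under 13 of the 28 alternative settings. *Tcf7l1*, a TCF that mostly represses, was higher in EVP than in TA (1.06 ± 0.28 (SE), adjusted p = 0.047), past the threshold under 8 of the 28 alternative settings. None of the TCF and LEF genes themselves passed for EVP against D.

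Of 8 feedback targets, which a cell turns on when beta-catenin signalling is active, 3 were higher in EVP than in D and none was lower, beside 11.6% and 7.46% of all tested genes. *Nkd1*, an inhibitor of Dvl, had 55.2 ± 28.4 against 5.98 ± 8.89 (3.52 ± 1.04 (SE), adjusted p = 0.023), *Znrf3* 513 ± 221 against 201 ± 62.3 (1.29 ± 0.34 (SE), adjusted p = 0.01) and *Rnf43* 24.6 ± 17.6 against 6.29 ± 11.9 (2.78 ± 0.94 (SE), adjusted p = 0.0461, past the threshold under 11 of the 28 alternative settings). *Axin2*, the most widely used target, was low in all populations, with 24.5 ± 19.6 in EVP, 11.5 ± 4.87 in TA and 6.72 ± 9.75 in D, and did not pass (EVP against D 2.46 ± 0.89 (SE), adjusted p = 0.0671). *Sp5* and *Notum* did not exceed 5.58 and 13.1 normalised counts and were not tested. *Rnf43* was also higher in TA than in D (4.64 ± 0.94 (SE), adjusted p = 0.00275) and was highest, at 214, in TA replicate 2, where the keratinocyte markers were highest.

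In the list of 10 planar cell polarity genes D exceeded EVP for 2 and EVP exceeded D for none, beside 7.46% and 11.6% of all tested genes, and with so few genes these counts do not stand apart. The 2 were *Prickle3* (-1.88 ± 0.28 (SE), adjusted p = 8.16e-05) and *Ptk7*, a co-receptor with an inactive kinase domain (-1.33 ± 0.36 (SE), adjusted p = 0.0127). *Prickle3* was also higher in D than in TA (-1.58 ± 0.28 (SE), adjusted p = 0.00108), and *Celsr2*, an adhesion receptor, was higher in TA than in D (3.61 ± 0.81 (SE), adjusted p = 0.00573), with its highest level of 469 again in TA replicate 2. The median log2 fold change of the list was 0.19 for EVP against D, beside 0.46 for all genes.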

How the data were processed

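The data were gene-level RNA sequencing values of 5 EVP, 5 TA and 5 D libraries. Per the study's methods and the submitters' processing notes, the authors made libraries by a modified Smart-Seq2 protocol, which primes on poly(A) and does not mark strand, aligned reads with STAR 2.5.3a to GRCm38, counted them per gene and normalised the counts with DESeq2 1.10.1. The authors deposited these normalised counts, a signal in which each read count is divided by the size factor of its library. In each library 100% of the values were whole multiples of the smallest value above 0, within a tolerance of 0.01, and whole reads were recovered in this way (5394356 to 26513073 per library, median 19049194). The deposited tables of the authors' own comparisons hold fold changes and p-values and were not used.

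Log2(normalised count + 1) was fitted, for 25549 genes whose mean was 5 or more, with limma 3.58.1 in R 4.3.3 (1 coefficient per population, all libraries, trend, two-sided), and p was adjusted by the Benjamini-Hochberg method over these genes, with 0.05 as the threshold. The count test named in the study's methods was run on the recovered reads as an alternative, by DESeq2 1.42.0 and edgeR 4.0.16. The code was tested on simulated data. Folds are ratios of mean normalised counts, values after ± are SDs unless SE is stated, and levels per kb were divided by the length of all exons of the gene in the GRCm38 annotation, which covered all 41 genes. Promoter windows came from RefSeq (GRCm38.p6) and were searched on both strands. Where a gene had several starts, the one nearest the gene's 5′ end was taken.

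The members, gene lists, tests and alternatives were chosen with earlier results of these data known. All 41 members were accounted for. Members past the threshold in any comparison were given with values in every library, others by their range, and genes of the 6 pathway lists were named where they passed in a comparison or where the list had 4 or fewer genes. *Axin2*, *Sp5* and *Notum* fell outside this rule and were named after their values were seen. *Itgam* was left out of the leukocyte list because 2 genes share the symbol. Alternatives were other pseudocounts, minimum means, scalings and tools, array weights, fits of 2 populations, a replicate block, subtraction of the olfactory receptor level, and leaving out libraries.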

Additional observations from a re-analysis of the deposited data

Results flagged for a closer look

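Among the 24 members past the threshold in any comparison, 72 groups of 5 libraries were examined on the log2 scale, and in 14 of them 1 library stood apart from the other 4 by more than the 95% critical value of Dixon's ratio (0.71). For normally spread values chance flags about 1 in 20 groups. That rate does not hold where the other 4 libraries are at 0, as for *Wnt10b*, *Fzd10* and *Wnt11* in D, so 14 cannot be set against it. Replicate 1 held 9 of the 14. In D replicate 1, *Wnt10a* had 12.4 normalised counts (others 0 to 0.816), *Wnt10b* 6.86 (others 0), *Wnt3* 61.8 (others 0 to 1.21), *Rspo3* 12.4 (others 0 to 0.816) and *Fzd10* 12.4 (others 0). In EVP replicate 1, *Fzd3* had 513 (others 51.2 to 86.2), *Lgr6* 348 (others 32.8 to 52.4) and *Wnt9a* 204 (others 313 to 372), and in TA replicate 1 *Wnt10b* had 75.8 (others 6.70 to 12.3). These libraries had a read in 89.2%, 98.3% and 81.6% of the olfactory receptor genes. With the median level per kb of these genes subtracted in each library, *Wnt10a* no longer passed for EVP against D. *Wnt10b* no longer passed for TA against D, and the other calls of the genes named here stayed. The part of such background in these values was not tested otherwise.

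In TA replicate 3, *Wnt2* had 13.4 (others 222 to 576) and *Fzd7* 45.8 (others 219 to 281). In TA replicate 4 *Ryk* had 218 (others 314 to 361), in EVP replicate 5 *Lgr5* had 31.1 (others 144 to 246), and in D replicate 4 *Wnt11* had 1.5, which is 2 reads (others 0).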

How the results depend on the processing

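The number of members past the threshold was 16 to 27 of 41 for EVP against D under 28 alternatives, and 14 of the 22 passed under every one. The lowest count, 16, came from edgeR on whole reads. There 2124 of 25549 genes passed in the direction of EVP and 1725 in that of D. Array weights gave the highest count, 27, with 4641 and 2968 genes, beside 2952 and 1907 in the main fit. Leaving out single libraries gave 18 to 23. For TA against D the range was 10 to 20, and 9 of the 17 passed under every alternative. Single libraries left out gave 13 to 20. Array weights gave 20, with 3262 of all genes higher in TA and 1792 in D, beside 2098 and 1101 in the main fit. Quantile normalisation gave 10 (9 higher in TA), with 1206 and 911 of all genes. This scaling moved the median log2 fold change of all genes from 0.46 to -0.05 for EVP against D and from 0.24 to -0.10 for TA against D. With the same total in every library the median for EVP against TA moved from 0.09 to -0.08. No member past the threshold changed sign under any alternative. The calls lost most often for EVP against D were *Lrp6*, *Wnt5b*, *Lrp5* and *Wnt10a*.

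The count for EVP against TA rested on *Ryk* and was small throughout. It was 5 with a pseudocount of 8 (*Ryk*, *Wnt2*, *Wnt11*, *Fzd2* and *Ror2*), 2 with a minimum mean of 20, 2 with 2 populations in the fit, 4 with DESeq2 (*Wnt10a* higher in TA among them), 1 with edgeR, 0 with the same total, 0 with array weights and 0 without replicate 1 of every population. Leaving out single libraries gave 0 to 2, and the count was 0 without EVP replicate 2, EVP replicate 3 or TA replicate 4 (in each case *Ryk* no longer passed) and 2 without TA replicate 2, TA replicate 5 or D replicate 5. Over all 25549 genes, 398 passed in the direction of EVP and 495 in that of TA in the main fit. With a pseudocount of 8 these were 621 and 545, with DESeq2 844 and 1056, and with array weights 334 and 359. The cause of the changes in count was not tested. With the olfactory receptor level as the limit, 2 members in TA and 11 in D were at the detection limit, in place of 1 and 5. The replicate number as a block gave 23, 3 and 19 members for EVP against D, EVP against TA and TA against D, adding *Lgr6* in the first, *Wnt2* and *Wnt10a* in the second and *Fzd6* and *Fzd10* in the third. The labels give the numbers without saying what they share. Correlations of the deviations of same-numbered libraries ran from -0.14 to 0.69 and were over 0.1 in 11 of 15 pairs, and 23 of 30 best matches were with the same number, which is a hint of shared sets from the data and not from the design. The fit without the block was kept because the labels name no shared sets, and 4 pairs were at or under 0.1. Depth limits the low members most, since 3 reads equal 10.5 normalised counts in EVP replicate 1.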
